A study of Mus musculus with 6 samples.

Results

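The genes described here make and move secreted and membrane proteins. A list of 44 gene symbols for translocation into the endoplasmic reticulum (ER), glycosylation, folding and coated vesicle transport was matched to the symbols of 1 deposited expression table. Of the 44, 43 have a row there, among 18312 genes in all, and Lman1 was not analysed here. The 43 genes held 182532 of 22625281 counts, or 0.807% of the total. Members were matched by symbol alone, as 13 genes for translocation, 7 for glycosylation, 6 for folding and 17 for vesicle transport. The list itself was drawn up with earlier results of these data known.

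The study set out to find mRNA targets of Brf1 (gene Zfp36l1) and Brf2 (gene Zfp36l2), zinc finger proteins that bind AU-rich elements in mRNA. Its 6 libraries came from E14 cells, a wild-type mouse embryonic stem cell line of 129/Ola background, kept in serum with the cytokine LIF. All were made from cytoplasm released by hypotonic lysis, as 2 libraries of total RNA with no antibody, 2 precipitated with anti-Brf1/2 antibody and 2 precipitated with rabbit IgG as a control. The table's columns name no library, so it was put in no group, and nothing says whether it holds a single library or a pool. Every level below is thus a value of 1 profile without replicates, no comparison between the antibody, IgG and total RNA libraries was made, and a level is neither a measure of binding nor necessarily of expression. All libraries came from 1 cell line.

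Levels are FPKM, the count scaled to the effective length and to the total count, as the authors deposited them. The effective length is the model length after the authors' corrections, and each level was also recomputed on the plain model length. The range in parentheses after a level is the deposited interval. For these genes it spans 2 Poisson standard deviations of the count on either side, so it covers counting error only, and it ran from 1.53% to 7.96% of the level on each side. Of the pluripotency genes that mark embryonic stem cells, Pou5f1 had 605 FPKM, Nanog 187, Sox2 179 and Zfp42 158. Of 10 genes listed as marks of specialised secretory cells, 6 have rows. Ins2, Alb and Prm1, a sperm gene that fits that list poorly, had 0 counts, for which a limit of 3 counts allows up to 0.427, 0.0478 and 0.277 FPKM, while Igj had 3 counts, Cel 6 and Amy2a5 39 (1.08 FPKM).

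A protein bound for the ER is recognised by the signal recognition particle as its signal peptide leaves the ribosome, and is handed through a receptor to the Sec61 channel. Inside, the oligosaccharyltransferase attaches N-linked glycans, the lectins calnexin and calreticulin hold unfinished glycoproteins, and protein disulfide isomerases form and rearrange disulfide bonds. Finished proteins leave in COPII-coated vesicles, and COPI-coated vesicles bring receptors and escaped residents back from the Golgi. When unfolded proteins build up, the transcription factors ATF6 and XBP1 raise many folding genes through ER stress response elements in their promoters.

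That element was searched in promoter windows from RefSeq (build GRCm38.p6), which run from 250 bases before to 50 after a gene's start, as the letters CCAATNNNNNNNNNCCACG on both strands. Windows were found for 36 of the 43 genes, of which 3 hold the element. These are Calr, Canx and Pdia6, 3 of the 6 folding genes, while none of 10 translocation, 6 glycosylation and 14 vesicle transport genes with a window does. Over all 27025 genes with a window, 37 (0.137%) hold it. The windows of the 3 genes are shown because they carry the only matches among the members, with the element in capitals and each window on its gene's strand. In Calr the element lies on the opposite strand, so it reads there as its reverse complement.

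Calr (chr8:84846882-84847181, minus strand): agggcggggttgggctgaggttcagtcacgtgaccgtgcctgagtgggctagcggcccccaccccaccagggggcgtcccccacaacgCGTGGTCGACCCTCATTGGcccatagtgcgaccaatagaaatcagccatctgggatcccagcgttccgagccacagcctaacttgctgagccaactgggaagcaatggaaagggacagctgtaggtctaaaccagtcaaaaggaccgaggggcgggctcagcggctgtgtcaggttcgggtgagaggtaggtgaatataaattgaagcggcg
Canx (chr11:50325624-50325923, minus strand): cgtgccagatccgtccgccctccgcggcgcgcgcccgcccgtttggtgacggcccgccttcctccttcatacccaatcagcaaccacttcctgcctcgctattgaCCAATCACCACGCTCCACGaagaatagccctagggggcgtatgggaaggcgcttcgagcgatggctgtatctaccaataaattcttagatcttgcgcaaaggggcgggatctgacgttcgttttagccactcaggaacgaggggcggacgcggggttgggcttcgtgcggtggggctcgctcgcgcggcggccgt
Pdia6 (chr12:17266339-17266638, plus strand): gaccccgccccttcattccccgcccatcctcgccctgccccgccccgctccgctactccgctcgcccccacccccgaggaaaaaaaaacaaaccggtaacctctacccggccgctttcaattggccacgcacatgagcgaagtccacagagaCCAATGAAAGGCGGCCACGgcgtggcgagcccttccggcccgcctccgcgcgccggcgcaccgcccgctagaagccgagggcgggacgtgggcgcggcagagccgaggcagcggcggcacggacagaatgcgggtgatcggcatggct

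The element spans bases 162 to 144 before the start in Calr, 145 to 127 in Canx and 98 to 80 in Pdia6. Among the other ER and transport genes listed for comparison, 74 have a window and 4 hold it: Hspa5 and Hsp90b1, the main ER members of the Hsp70 and Hsp90 chaperone families, Dnajc3, a co-chaperone of Hspa5, and Ero1lb, an oxidase that recharges disulfide isomerases. Hspa5 carries it as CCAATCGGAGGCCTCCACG, 65 to 47 bases before its start, and Hsp90b1 has 2 matches. A related element, TGACGTGG, shares CGTGG with the reverse complement of the first. It was found in 3 members, the coat genes Sec23a, Copb1 and Copb2, and in 193 of all genes with a window (0.714%). Of the 74 other listed genes with a window, 5 held it. These were Txndc5, a folding gene, and Sec16b, Sec24d, Arf1 and Kdelr3 of vesicle transport. A match describes the letters in the window and was not tested as a binding site.

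The folding genes had the highest median of the 4 groups, 129 FPKM, followed by translocation at 56.0, glycosylation at 35.7 and vesicle transport at 30.9. The order of the group medians was the same on the model length, at 183, 72.3, 57.9 and 40.3 FPKM. Among the other listed genes of each group, described below, folding did not lead. Their medians were 22.4 FPKM for translocation, 15.8 for folding, 13.7 for vesicle transport and 9.35 for glycosylation. The median over all genes of the table was 1.94 FPKM, and over the 10257 genes with at least 1 FPKM it was 9.66. All 43 members had at least 1 FPKM, against 56.0% of all genes. The same share stands beside the counts at 1 FPKM given below for other listed genes. At or above 50 FPKM were 18 of 43 members, against 6.84% of all genes, with 5 of 6 in folding, 8 of 13 in translocation, 2 of 7 in glycosylation and 3 of 17 in vesicle transport. On the model length the count at 50 FPKM was 27 of 43, against 9.04% of all genes, with 6 of 6 in folding, 10 of 13 in translocation, 6 of 7 in glycosylation and 5 of 17 in vesicle transport. At or above 100 FPKM on the deposited scale were 10 members, against 3.06% of all genes, and at or above 25 FPKM 34 members, against 13.8%. The folding median was 4.18 times that of vesicle transport. The groups overlapped, since 3 vesicle transport genes and 9 translocation genes were above the lowest folding gene, Pdia4. Although it is the smallest group, folding held the most counts, 0.276% of the total, against 0.214% for vesicle transport, 0.204% for translocation and 0.113% for glycosylation.

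**Figure D1:**
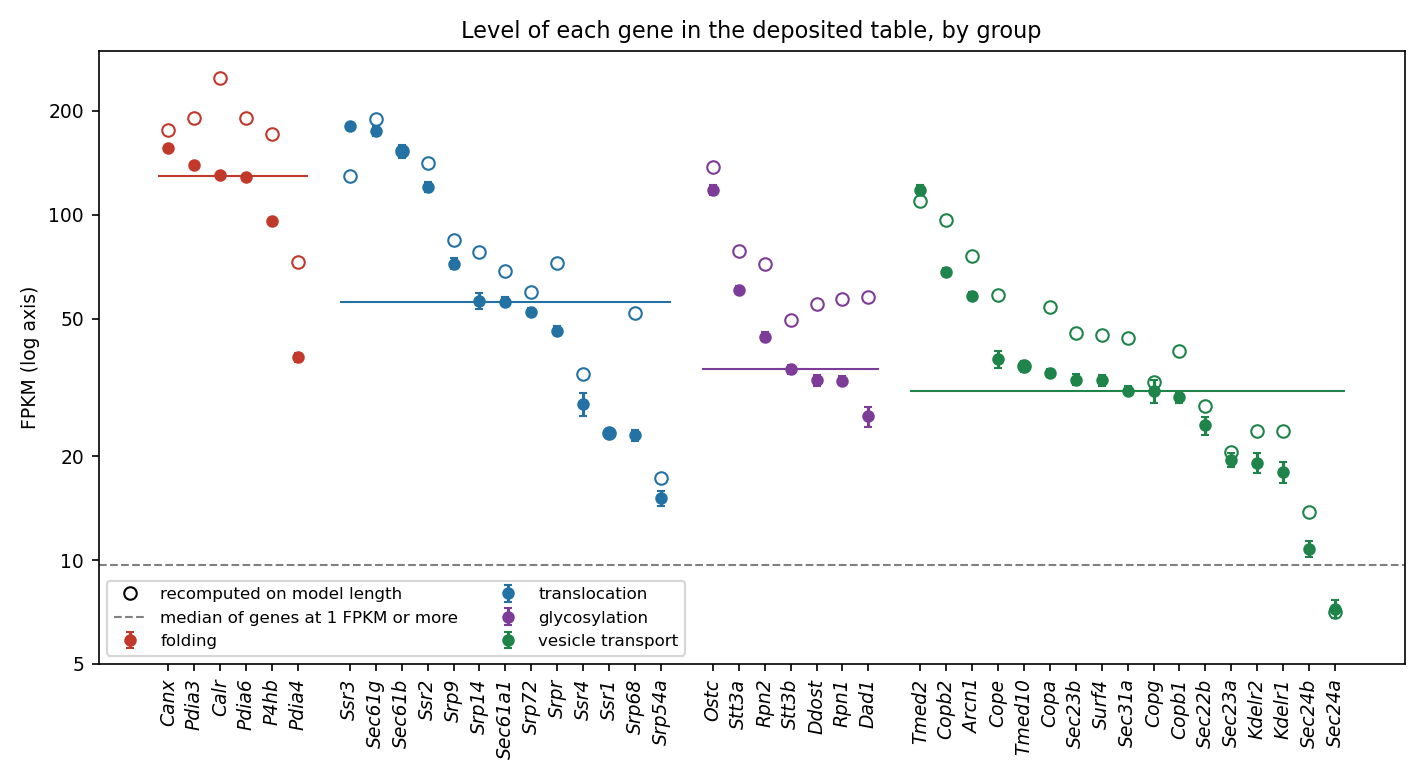
Level of each of the 43 genes in FPKM on a log axis, ordered within each group. Filled points are deposited values with their intervals, open points the values on the model length, horizontal lines the group medians of deposited values, and the dashed line the median of genes with at least 1 FPKM. Folding has the highest group median, 129, but Ssr3 at 180 and Sec61g at 175, of translocation, lie above every folding gene. Sec24a at 7.23 is the only gene under the dashed line at 9.66.

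Among the folding genes, the membrane-bound lectin Canx had 156 FPKM (154 to 159, 16990 counts). Its soluble relative Calr had 130 FPKM (127 to 132, 10960 counts). The order of these lectins turned with the length used: Canx was 1.20 times Calr on the effective length (95% counting interval 1.17 to 1.23) and 0.708 times Calr on the model length (0.691 to 0.725). Calr was given an effective length 1.92 times its model of 1943 nt, while for Canx the factor was 1.13. On the model length Calr was the highest of all 43 genes, at 249 FPKM.

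The disulfide isomerases differed among themselves. Pdia3, which works with Canx and Calr on glycoproteins, had 139 FPKM (137 to 142, 11410 counts). Pdia6 had 129 FPKM (126 to 131, 9148 counts), and its interval overlaps that of Calr. P4hb, the general disulfide isomerase and a subunit of collagen prolyl hydroxylase, had 96.1 FPKM (94.2 to 98.1, 9826 counts). Pdia4 was the lowest at 38.6 FPKM (37.4 to 39.8, 4098 counts). Pdia3 was 3.61 times Pdia4, and 2.61 times on the model length. The folding members with the stress element in their promoters had 129 to 156 FPKM. They overlapped in level with those without a match (38.6 for Pdia4, 96.1 for P4hb and 139 for Pdia3). Of the latter, Pdia3 alone was above Calr and Pdia6. Other listed folding genes with the element spread much wider, with Ero1lb at 1.60 FPKM, Dnajc3 at 9.35, Hspa5 at 127 and Hsp90b1 at 238.

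Of 20 other listed folding genes, 18 have rows, with a median of 15.8 FPKM, and 16 of them had at least 1 FPKM. The highest were the chaperones Hsp90b1 at 238 FPKM (235 to 241) and Hspa5 at 127 (125 to 130), and the cyclophilin Ppib at 49.3 (47.4 to 51.3). The interval of Hspa5 overlaps those of Calr and Pdia6, while on the model length Hspa5 had 192 FPKM against 249 for Calr and 190.3 for Pdia6. The lowest were Pdia2 with 8 counts (0.141 FPKM), Calr3, the testis form of calreticulin, with 32 counts (0.485), and Ero1lb with 142 counts (1.60). Ero1l, the paralog of Ero1lb, had 22.2 FPKM (21.2 to 23.2).

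In translocation, the 3 subunits of the Sec61 channel were unequal. Sec61a1, the pore-forming subunit, had 56.0 FPKM (54.4 to 57.6, 4721 counts). The small subunits were higher, Sec61b at 153 FPKM (146 to 160, 1911 counts) and Sec61g at 175 (169 to 181, 3335 counts). The difference between Sec61g and Sec61a1 was 3.12 times, and 2.76 times on the model length. Sec61a2, the paralog of Sec61a1, had 19.6 FPKM. The small subunits are short models (552 nt for Sec61b and 779 nt for Sec61g, against 3039 nt for Sec61a1). They also share sequence with other loci, as described below.

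The TRAP complex, which sits beside the channel and helps some signal peptides to engage it, had members far apart. Ssr3 had 180 FPKM (176 to 184, 8433 counts), the highest deposited level of the 43 genes, although its interval overlaps that of Sec61g. Ssr2 had 120 FPKM (116 to 124, 3777 counts), Ssr4 28.3 (26.0 to 30.6, 631 counts) and Ssr1 23.3 (22.7 to 24.0, 4913 counts). Ssr3 and Ssr2 thus stood apart from Ssr4 and Ssr1, and the highest was 7.73 times the lowest. This was the largest spread among complexes and other subgroups with 3 or more members on the deposited scale. On the model length, in contrast, TRAP spread 6.05 times and the COPII coat 6.43 times. Ssr1 has a model of 9306 nt, the longest among the members, with a 3′ untranslated region of 8338 nt in the GENCODE annotation. On the model length Ssr2 at 141 FPKM passed Ssr3 at 129, because the effective length of Ssr3 was 0.716 times its model, the lowest such factor in the list.

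The signal recognition particle ranged from 15.1 to 72.2 FPKM. Srp9 had 72.2 FPKM (69.4 to 75.1) and Srp14 56.2 (53.2 to 59.3). Their proteins form the heterodimer that slows elongation, and Srp9 was 1.28 times Srp14 (95% counting interval 1.20 to 1.37), or 1.08 times on the model length. Srp68 and Srp72, which also bind each other, had 23.0 FPKM (22.1 to 23.8) and 52.3 (50.8 to 53.8). Srp68 was 0.439 times Srp72 on the deposited scale and 0.872 times on the model length, which goes with the largest ratio of effective to model length among the members, 2.26 for Srp68. Srp54a, the GTPase subunit that binds signal peptides, had 15.1 FPKM (14.4 to 15.9). Its close paralogs Srp54b and Srp54c had 15.9 and 19.5 FPKM. Srpr, the large subunit of the particle's receptor, had 46.2 FPKM (44.9 to 47.5), and the small subunit Srprb had 10.9.

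Of 14 other listed translocation genes, 12 have rows, all with at least 1 FPKM and a median of 22.4. The highest were signal peptidase subunits, which cut the signal peptide off: Spcs3 at 49.9 FPKM, Spcs2 at 42.4 and Sec11a at 39.4. The lowest were Tram2 at 2.16, Srprb at 10.9 and Sec63, a partner of the channel in post-translational import, at 12.4.

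The highest member of the oligosaccharyltransferase was 4.53 times the lowest, and 2.77 times on the model length. Of its 7 members, 6 lay between 26.1 and 60.6 FPKM, and Ostc stood above them at 118 FPKM (114 to 122, 3303 counts). Stt3a, the catalytic subunit that acts during translocation, had 60.6 FPKM (58.8 to 62.3), and Stt3b, which can act afterwards, had 35.7 (34.6 to 36.7). Stt3a was 1.70 times Stt3b (95% counting interval 1.63 to 1.77), and 1.58 times on the model length. Ostc belongs to the Stt3a form of the enzyme, as does Krtcap2, which had 44.6 FPKM. The oxidoreductase subunits of the Stt3b form, Tusc3 and Magt1, had 26.1 and 12.7 FPKM.

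The ribophorins Rpn1 and Rpn2, structural subunits, had 33.1 FPKM (32.1 to 34.1) and 44.3 (43.0 to 45.6). Ddost had 33.1 FPKM (31.8 to 34.4), a level that overlaps Rpn1. Dad1, named for the cell death that followed its loss, had 26.1 FPKM (24.4 to 27.8), but on the model length it reached 57.9, above Rpn1 at 57.2. Of 17 other listed glycosylation genes, 15 have rows, all at 1 FPKM or more, with a median of 9.35. Ost4, a very small subunit of the same enzyme, was the highest at 135 FPKM, before Krtcap2 and Prkcsh, the glucosidase II beta subunit, at 28.7. The lowest were mannosyl- and glucosyltransferases that build the lipid-linked glycan, Alg8 at 2.02, Alg2 at 4.55 and Alg1 at 4.63.

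In vesicle transport, the COPII coat that forms at ER exit sites was the lower of the coats. Sec23b had 33.3 FPKM (32.0 to 34.5) and its paralog Sec23a 19.5 (18.6 to 20.4). Sec31a, of the outer cage, had 30.9 FPKM (30.0 to 31.9). Sec24a at 7.23 FPKM (6.79 to 7.67) and Sec24b at 10.8 (10.2 to 11.3) were the lowest of all 43 genes. Sec24 proteins bind the cargo, and of their other paralogs Sec24c had 29.9 FPKM and Sec24d 9.08, so that Sec24c was the highest of the 4. Sec13, the partner of Sec31a, had 60.8 FPKM, and the GTPases that start the coat, Sar1a and Sar1b, had 45.5 and 23.7.

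Sec23a was 0.586 times Sec23b (95% counting interval 0.553 to 0.621), and Sec24a was 0.671 times Sec24b (0.620 to 0.725). On the model length these ratios were 0.452 and 0.513, so the direction was the same on each scale.

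COPI is a coat of 7 kinds of subunit, 6 of which are members. Copb2 (beta prime) had 68.3 FPKM (66.6 to 69.97), Arcn1 (delta) 58.1 (56.6 to 59.6), Cope (epsilon) 38.1 (36.1 to 40.2), Copa (alpha) 34.8 (33.9 to 35.8), Copg (gamma) 30.9 (28.5 to 33.3) and Copb1 (beta) 29.6 (28.6 to 30.7). The highest was 2.30 times the lowest, the smallest spread among complexes and other subgroups with 3 or more members on the deposited scale. On the model length it was 2.94 times, above the oligosaccharyltransferase at 2.77, the Sec61 channel at 2.76 and the disulfide isomerases at 2.61. Copb1 was 0.434 times Copb2, and 0.417 times on the model length. Copz1, the zeta subunit, had 85.4 FPKM, and the paralogs Copg2 and Copz2 had 12.4 and 0.756. The model for Copg is 877 nt long, whereas the longest GENCODE transcript of the gene has 5357 nt. Its level may thus rest on a part of the gene. A longest transcript well beyond the model was also annotated for Dad1 (3491 against 697 nt), Ssr4 (2568 against 804) and Srp9 (3719 against 1388). So it was for Cope (2753 against 1033), Sec61g (1862 against 779) and Stt3a (5867 against 2697). Without Copg the spread was 2.30 times on the deposited scale and 2.40 times on the model length.

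**Figure D2:**
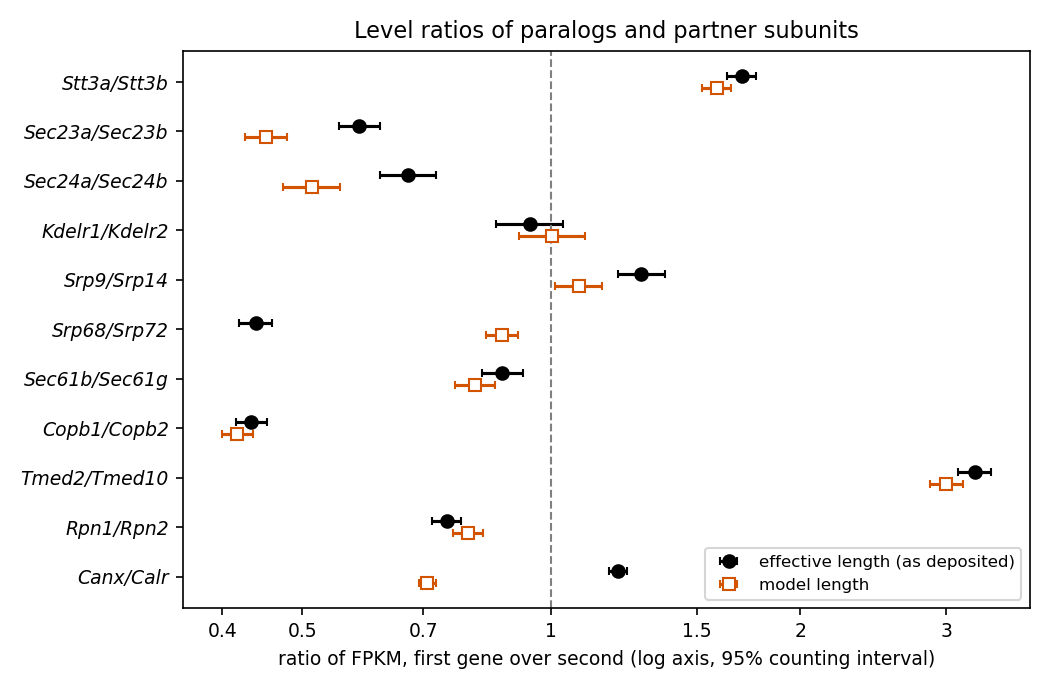
Ratio of the FPKM of the first gene to that of the second for 11 pairs, on a log axis with 95% counting intervals. Black points use the deposited effective length and orange squares the model length. Kdelr1 and Kdelr2 lie at 1 within the interval on each scale, and Canx over Calr moves from 1.20 to 0.708.

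Cargo and retrieval receptors also varied. Tmed2 had 118 FPKM (115 to 122, 4904 counts) and Tmed10 36.4 (35.1 to 37.8, 2919 counts), although these p24 family proteins join in the same complexes. Tmed2 was 3.25 times Tmed10 (95% counting interval 3.10 to 3.40), and 2.999 times on the model length. Surf4, a receptor that carries soluble cargo out of the ER, had 33.1 FPKM (31.9 to 34.3). Kdelr1 and Kdelr2, which return proteins that end in the KDEL signal, had 18.0 FPKM (16.7 to 19.3) and 19.1 (17.9 to 20.4). Their ratio of 0.941 had an interval of 0.858 to 1.03, and at this depth no difference was detectable, while Kdelr3 had 2.39 FPKM. Sec22b, a SNARE for fusion between ER and Golgi, had 24.5 FPKM (23.1 to 26.0), against 4.74 for Sec22a and 3.69 for Sec22c.

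Of 34 other listed vesicle transport genes, 30 have rows, with a median of 13.7 FPKM, and 26 had at least 1 FPKM. The highest were Arf1, the GTPase that recruits COPI, at 228 FPKM, Copz1 and Tmed9 at 62.8. Tmed6 and Lman1l had 0 counts, for which 3 counts allow up to 0.104 and 0.0459 FPKM, and Sec16b had 4 counts. The paralog Sec16a had 13.98 FPKM.

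Neighbours in the order of the 43 levels often could not be separated by counting error. Of 42 neighbouring pairs, 27 had overlapping intervals, and on the model length 23 did. The choice of length moved most members further than their interval, with 36 of 43 higher on the model length, 2 lower and 5 within it. That count was not made over all genes, but their median also rose on the model length, from 1.94 to 2.58 FPKM. The ratio of effective to model length had a median of 1.31 over the members and 1.27 over all genes. By group the medians were 1.63 in folding and glycosylation, 1.31 in vesicle transport and 1.17 in translocation. Across the 37 members whose transcript in the annotation was within 10% of the model length, this ratio rose with GC content (Spearman rho 0.503), and across 15455 genes rho was 0.678. All points share 1 profile and 1 correction.

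**Figure D3:**
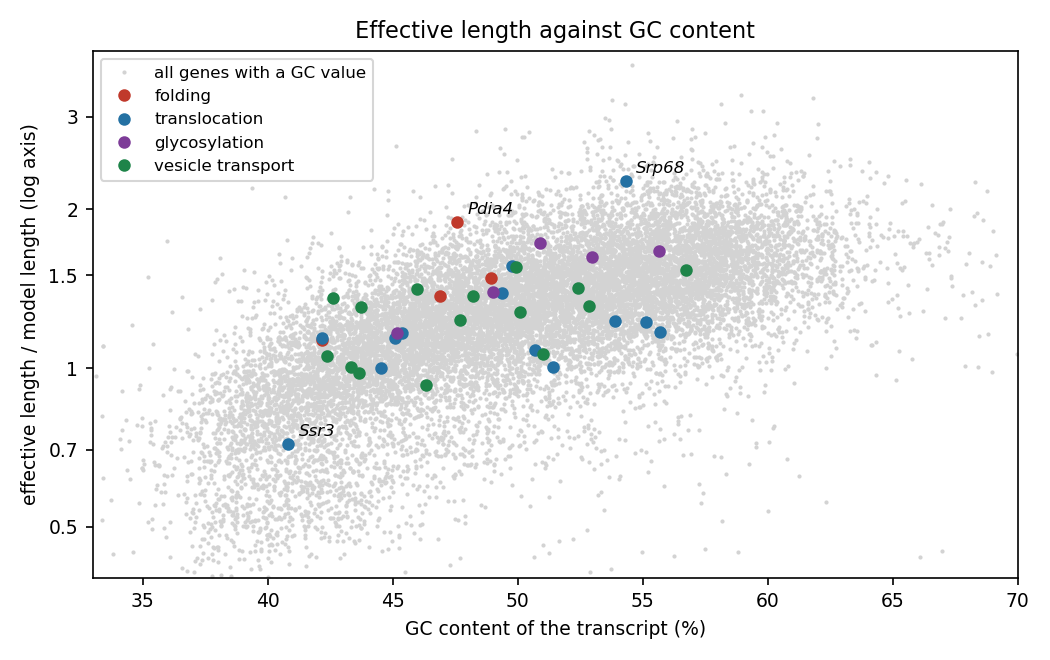
Ratio of effective to model length, on a log axis, against the GC content of the transcript, with 37 members in colour over all 15455 genes with a value in grey, apart from genes outside the plotted range. Srp68 has a ratio of 2.26 at 54.3% GC, Pdia4 1.89 at 47.6% and Ssr3 0.716 at 40.8%.

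Some members share sequence with other loci, which bears on their counts. Of 43 transcripts, 21 have no stretch of 36 bases in common with a transcript of another gene, and 7 share more than 10% of their stretches. Srp54a shares 76.6%, all of it with Srp54b. Sec61b shares 51.2%, Sec61g 47.0%, Tmed2 29.4%, Srpr 27.5%, Srp9 16.4% and Sec61a1 15.4%, mainly with predicted genes that have no row in the table. The table lists total and unique counts as equal in every row, so how shared reads were assigned is not recorded, and the levels of these 7 genes are less certain than their intervals. Strand handling is not stated either, so reads of overlapping neighbours, such as Surf2 beside Surf4 (3.36% shared), cannot be told apart.

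Since Brf1 and Brf2 bind AU-rich elements, the 3′ untranslated regions of the members were searched for TATTTAT on the transcribed strand. In the longest region annotated by GENCODE M21, 9 of 43 members (20.9%) had it, against 30.6% of 10079 genes with at least 1 FPKM and a region. The members' regions were also shorter, with a median of 988 nt against 1360 nt. Members with the motif were Ssr1, Ssr3, Srp14, Srp72, Stt3b, Canx, Sec24b, Copg and Kdelr2, that is 4 of 13 in translocation, 1 of 7 in glycosylation, 1 of 6 in folding and 3 of 17 in vesicle transport. Canx had 2 sites and the others 1 each, and none lay within the longer TTATTTATT. Their median level was 35.7 FPKM, and that of members without the motif was 38.4. On the model length these medians were 49.6 and 63.7 FPKM. In the shortest annotated region, 4 of 43 members (9.30%) had the motif, against 16.4% of genes with at least 1 FPKM. The sites of these 4 genes in the longest region are shown, with the motif in capitals and 11 bases on either side (build GRCm38). Canx has 2 sites there but only 1 in its shortest region.

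Canx site 1 (chr11:50295067-50295095, minus strand): cctgctaaaagTATTTATgggaggattga
Canx site 2 (chr11:50294311-50294339, minus strand): aatgacaggttTATTTATgtcactggtgg
Stt3b (chr9:115243454-115243482, minus strand): tctgggaactcTATTTATtttcctgtttc
Sec24b (chr3:129983207-129983235, minus strand): ttatgtggattTATTTATgatcagcctac
Kdelr2 (chr5:143421255-143421283, plus strand): aatttccatgcTATTTATtttctttcttt

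These 4 genes span the range of the list, from Sec24b at 10.8 FPKM to Canx at 156. Whether any of these mRNAs was enriched by the antibody cannot be read from a single profile.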

How the data were processed

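RNA from cytoplasm of E14 mouse embryonic stem cells was sequenced as total RNA or after precipitation, in 3 groups of 2 libraries per the labels. CASAVA 1.8.2, Bowtie 1.1.2, eXpress 1.1.1 and mm9 are named in the submitters' processing notes without their roles. The authors deposited 1 table of counts, estimated counts and FPKM with bounds per gene model, per the file headers. Total, unique and estimated counts were equal in every row. FPKM was checked to equal the count over effective length and total. A row without a gene name, equal to the total of 22625281, was left out. The columns name no library and were assigned to no group, and 0 columns of per-sample values were left unused.

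Levels were recomputed on the model length, and group medians, counts at or above 50 FPKM (25 and 100 as alternatives) and 11 level ratios were taken, with 95% intervals from Poisson counting error on the log scale. There were no tests, since 1 profile has no spread between samples. PCR reads carry no molecular identifiers, so intervals cover counting error only. Promoters came from RefSeq (GRCm38.p6), transcripts and 3′ regions of at least 50 nt from GENCODE M21 (GRCm38), matched by symbol or 1 synonym. Those builds differ from mm9, so the windows and sites belong to the annotation and not to the table's models. Transcript GC and shared stretches of 36 bases came from the annotated transcript nearest in length to the model. The FPKM arithmetic, the interval and the motif search were tested on simulated data. All members are described, and of the other listed genes the 3 highest and 3 lowest of each group. Paralogs and partner subunits of members, and Dnajc3 for its stress element, were added after their values were seen. The members, the lists and the threshold of 50 FPKM were chosen with earlier results of these data known. The work was done in Python 3.11.15 (pandas 2.3.3, numpy 2.4.6, scipy 1.17.1), with plots in matplotlib 3.10.9.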

Additional observations from a re-analysis of the deposited data

How the results depend on the processing

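Scaled to the model length, the group medians were 58.7 FPKM over all members, 72.3 for translocation, 57.9 for glycosylation, 183 for folding and 40.3 for vesicle transport. At least 50 FPKM was then reached by 27 members, among them 6 glycosylation genes and 5 vesicle transport genes. A threshold of 25 FPKM was reached by 34 members, with 7 in glycosylation and 11 in vesicle transport, and one of 100 by 10 members, with 4 in translocation, 1 in glycosylation and 1 in vesicle transport. Canx over Calr turned from 1.20 to 0.708 on the model length. The other ratios that moved beyond their interval were 1.58 for Stt3a over Stt3b, 0.452 for Sec23a over Sec23b, 0.513 for Sec24a over Sec24b, 1.08 for Srp9 over Srp14, 0.872 for Srp68 over Srp72, 0.809 for Sec61b over Sec61g, 2.999 for Tmed2 over Tmed10 and 0.793 for Rpn1 over Rpn2. These changes follow from the lengths and thresholds themselves. TATTTAT was in 4 members with the shortest region (9.30%, against 16.4% of genes with at least 1 FPKM) and ATTTA in 33 with the longest (76.7% against 71.6%), the latter added after the data were seen, as was the transcript nearest in length. Estimated counts equal total counts in every row, so using them could not change any share of counts.

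No paired analysis was possible because no column is tied to a library. Likewise, the alternatives planned for group comparisons (edgeR and DESeq2, filters, leaving out each library) were not run. Counting depth limits Ssr4 and Copg most, with intervals near 8% on each side.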

Other observations

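Of 7 listed genes that sense or answer ER stress, all but Atf4 were lower than each of the 6 folding members. Atf4 was above only Pdia4 of those members. This order did not extend to the other listed folding genes, which had a median of 15.8 FPKM. Hyou1 at 22.6 FPKM, for one, was below Xbp1. All 7 stress genes reached 1 FPKM, against 56.0% of all genes, and their median was 7.95. Atf4, a transcription factor made when translation is curbed by stress, had 83.5 FPKM (81.1 to 85.8) and Xbp1 24.2 (22.7 to 25.7). Ddit3, a target of Atf4 linked to cell death, had 10.1 FPKM, and Herpud1, which acts in ER-associated degradation, had 7.95. The sensors were the lowest, with Atf6 at 6.26, Eif2ak3 at 4.69 and Ern1 at 2.01. These levels say nothing of the activity of the proteins, which are controlled by cleavage, splicing of Xbp1 mRNA and phosphorylation.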
